A study of Bos taurus with 129 samples.

Results

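The transcripts described here belong to 9 genes of lipid mediator synthesis, namely ALOX15, ALOX5, ALOX5AP, LTA4H, LTC4S, PTGS1, PTGS2, PTGES and HPGD. They were taken by symbol from the gene table of a study of bovine whole blood. All 9 symbols were present, each in 1 row, among the 32395 genes of the table, and all 9 were among the 18937 genes tested. Levels are given as CPM, the count of a gene relative to the total of its library, scaled between libraries by the TMM method. Transcript lengths were not used, so that the level of a gene is compared with itself in other libraries and never with that of another gene.

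Arachidonic acid is released from membrane phospholipids and then enters one of several enzymatic routes. In the lipoxygenase route, ALOX5 makes leukotriene A4 with the help of the membrane protein ALOX5AP. LTA4H turns this product into leukotriene B4, a strong attractant of neutrophils, and LTC4S turns it into the cysteinyl leukotrienes, which constrict airways. ALOX15 is another lipoxygenase, long known from eosinophils. In the cyclooxygenase route, the constitutive PTGS1 and the inducible PTGS2 make the common prostaglandin precursor, PTGES converts it to prostaglandin E2, and HPGD oxidises prostaglandins to inactive products. In blood these routes are best known from granulocytes, monocytes and platelets.

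Blood was drawn from 26 commercial crossbred beef steers, which are castrated males, on the day of enrollment in the pens (day 0). The same steers, which had arrived at the stocker facility the day before, were sampled again 13, 28, 45 and 60 days later. Of these, 12 were never diagnosed with, nor treated for, clinical bovine respiratory disease (BRD) and are called healthy cattle, and 14 carried the disease label and are called BRD cattle. The label covers the whole period, and the day on which an animal fell ill is not given in the sources used here, so a library of BRD cattle need not come from a sick animal. The supplement groups differed in their zinc, copper, manganese and cobalt. These were given as sulfates in INR. In AAC and COMBO zinc, copper and manganese were given as amino acid complexes and cobalt as a glucoheptonate. The COMBO animals also received a trace mineral drench before shipment, on day 0 and with any treatment of illness. The drench held selenium and vitamin E as well. Each supplement had 4 healthy animals, and the BRD cattle numbered 4 in AAC, 3 in COMBO and 7 in INR. All animals came from a purchased group of unknown history, were hauled over a long distance, were given a vaccine against respiratory viruses and doramectin, an antiparasitic, on day 0, and were vaccinated again between days 13 and 28. Ages are not given in the sources used here. In COMBO the healthy cattle were enrolled in pen 5 and the BRD cattle in pen 6, so that disease label and first pen cannot be told apart there, and pen 7 held BRD cattle only. Pens 2, 3, 4 and 8 held 8 healthy and 7 BRD animals together, and animals were moved between pens during the study.

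Libraries numbered 59 from healthy and 70 from BRD cattle, because AAC animal 48 has no library at day 13. Total counts ranged from 31613545 to 61692136 per library (median 44268685). The biological coefficient of variation between animals of the same supplement, label and day was 38.99%. The library of lowest RNA integrity was that of BRD animal 40 at day 60, and every call of a member was also made without it. Markers of the expected blood cells were present, with S100A12 for neutrophils, FCN1 for monocytes, MS4A1 for B cells, CD3E for T cells and HBB for red cells detected in every library. In bulk blood, fewer cells of a type and less RNA per cell cannot be told apart.

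Counts behind the levels differed widely. LTA4H had 1029 to 4329 counts per library, ALOX5AP 204 to 6274, ALOX15 82 to 17937, ALOX5 39 to 4647, HPGD 28 to 2619, LTC4S 14 to 718, PTGS1 23 to 212 and PTGS2 18 to 355. PTGES had a median of 3 counts, was at 0 in 48 libraries and reached 10 counts in 13. Differences of PTGES were therefore hardly detectable at this depth.

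The members fell into several patterns over the 60 days. PTGS2 and LTC4S were higher than at day 0 on every later day, in healthy and in BRD cattle. ALOX5AP was lower than at day 0 on every later day in BRD cattle, and on days 28 and 60 in healthy cattle. ALOX15, ALOX5 and HPGD rose on days 45 and 60 in BRD cattle, and ALOX5 and HPGD fell on day 28 in healthy cattle. PTGS1 rose on days 13, 28 and 60 in BRD cattle and on day 28 in healthy cattle. LTA4H and PTGES were not called on any day. With all 26 animals, no member was called between BRD and healthy cattle at any day, and none was called between supplements. A gene is said to be called, to rise or to fall where edgeR's quasi-likelihood test gave a false discovery rate (FDR) below 0.10 over all tested genes.

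**Figure D1:**
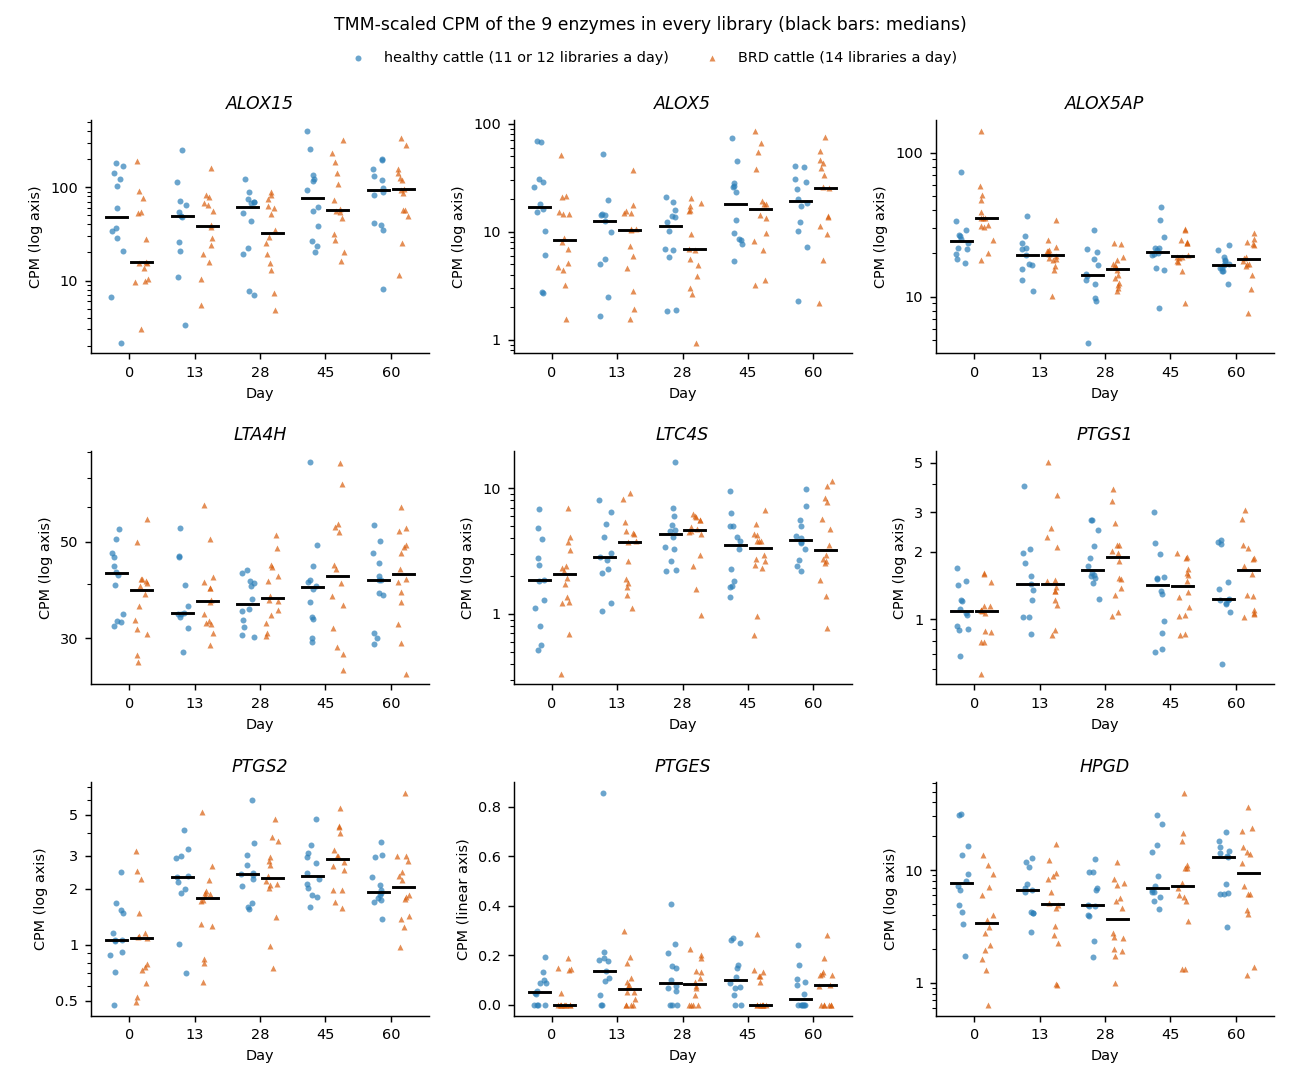
TMM-scaled CPM of each of the 9 genes (log axis, linear for PTGES) by day, with 1 point per library, circles for healthy cattle (11 libraries at day 13, 12 otherwise), triangles for BRD cattle (14 libraries a day) and black bars for medians. The BRD medians of ALOX15, ALOX5 and HPGD lie below the healthy medians at day 0, at 15.7 against 48.5 CPM for ALOX15, and the points of both labels overlap in every panel and on every day.

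ALOX15 at day 0 ranged from 2.16 to 184.0 CPM in healthy cattle, with a median of 48.5 CPM, and from 3.03 to 192.1 CPM in BRD cattle, with a median of 15.7 CPM. At day 60 it ranged from 8.11 to 199.98 CPM in healthy cattle (median 92.8 CPM) and from 11.5 to 333.5 CPM in BRD cattle (median 94.7 CPM). Of the 14 BRD animals, 13 were higher at day 60 than at day 0, and of the 12 healthy animals, 8 were. The BRD medians on days 13, 28 and 45 were 38.4, 31.97 and 57.06 CPM, and the healthy medians were 48.9, 61.03 and 77.2 CPM. In the model with each animal as a block, which compares an animal with itself, the fold change of BRD cattle was 3.09 at day 45 (log2 1.63 ± 0.37 SE, edgeR FDR = 0.000717) and 3.52 at day 60 (log2 1.82 ± 0.36 SE, edgeR FDR = 0.000138). In healthy cattle the log2 changes were 0.64 ± 0.39 at day 45 and 0.69 ± 0.40 at day 60 and were not called.

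ALOX5 had a median of 17.04 CPM in healthy cattle at day 0 (range 2.69 to 68.7 CPM), and of 8.35 CPM in BRD cattle (range 1.55 to 51.496 CPM). At day 28 the healthy libraries ranged from 1.82 to 21.01 CPM (median 11.28 CPM), with 11 of 12 animals lower than at day 0, and the fitted log2 change was -1.12 ± 0.37 SE (edgeR FDR = 0.0265). The BRD libraries at day 28 ranged from 0.936 to 20.5 CPM (median 6.85 CPM), with a log2 change of -0.09 ± 0.34 that was not called. Later the BRD medians stood at 16.1 CPM on day 45 and 25.6 CPM on day 60. The fold changes of BRD cattle against day 0 were 2.09 at day 45 (log2 1.06 ± 0.34 SE, edgeR FDR = 0.0203) and 2.38 at day 60 (log2 1.25 ± 0.34 SE, edgeR FDR = 0.00601), with 10 and 12 of 14 animals higher. Healthy medians were 18.04 CPM on day 45 and 19.2 CPM on day 60.

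ALOX5AP is the protein that presents arachidonic acid to ALOX5. At day 0 it ranged from 17.2 to 72.8 CPM in healthy cattle (median 24.4 CPM) and from 18.1 to 141.8 CPM in BRD cattle (median 35.001 CPM). At day 28 it ranged from 4.79 to 28.98 CPM in healthy cattle (median 14.1 CPM) and from 10.9 to 23.54 CPM in BRD cattle (median 15.6 CPM). All 14 BRD animals were lower than at day 0 on days 28, 45 and 60, and 13 of 14 on day 13. The log2 changes of BRD cattle were -1.02 ± 0.18 SE at day 13 (edgeR FDR = 1.88e-05), -1.35 ± 0.18 at day 28 (1.34e-08), -0.96 ± 0.18 at day 45 (4.54e-05) and -1.11 ± 0.18 at day 60 (2.83e-06). In healthy cattle the log2 change was -0.87 ± 0.19 at day 28 (edgeR FDR = 0.00068) and -0.64 ± 0.19 at day 60 (edgeR FDR = 0.0214). The healthy changes at days 13 and 45, -0.44 ± 0.20 and -0.33 ± 0.19, did not pass the threshold. Without healthy animal 6 the call at day 60 was lost (log2 -0.51, edgeR FDR = 0.105).

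The 2 enzymes that act on leukotriene A4 behaved differently from each other. LTA4H had day medians between 34.4 and 42.3 CPM in healthy cattle and between 36.5 and 42.1 CPM in BRD cattle. Its log2 changes from day 0 lay between -0.18 and 0.18, and none was called. LTC4S was lowest at day 0, at a median of 1.86 CPM in healthy cattle (range 0.517 to 6.85 CPM) and 2.08 CPM in BRD cattle (range 0.334 to 7.01 CPM). At day 28 its medians were 4.37 CPM (range 2.18 to 16.2 CPM) and 4.67 CPM (range 0.976 to 6.26 CPM). The fold changes in healthy cattle were 1.57 at day 13 (edgeR FDR = 0.0553), 2.203 at day 28 (6.32e-05), 1.62 at day 45 (0.0368) and 2.05 at day 60 (0.000547). In BRD cattle they were 1.69 at day 13 (edgeR FDR = 0.0058), 1.96 at day 28 (0.000172), 1.49 at day 45 (0.0324) and 1.97 at day 60 (0.000196). Some of the LTC4S calls depended on single animals. The healthy call at day 13 was lost without animal 10, 34, 46, 49 or 50 in turn (log2 0.49 to 0.64), the healthy call at day 45 without animal 46 or 48 (log2 0.64 and 0.56), and the BRD call at day 45 without animal 29 (log2 0.44).

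Both cyclooxygenases were lowest at day 0. PTGS2 ranged from 0.474 to 2.45 CPM in healthy cattle at day 0 (median 1.06 CPM) and from 0.4934 to 3.20 CPM in BRD cattle (median 1.09 CPM). At day 45 it ranged from 1.59 to 4.72 CPM in healthy cattle (median 2.33 CPM) and from 1.57 to 5.40 CPM in BRD cattle (median 2.89 CPM). All 12 healthy and all 14 BRD animals were higher at day 45 than at day 0, and the same held at day 60. The fold change at day 45 was 2.21 in healthy cattle (log2 1.15 ± 0.18 SE, edgeR FDR = 1.52e-06) and 2.64 in BRD cattle (log2 1.40 ± 0.17 SE, edgeR FDR = 1.41e-10). On the other days the fold changes were 1.95, 2.24 and 1.88 in healthy cattle and 1.48, 2.04 and 1.89 in BRD cattle at days 13, 28 and 60, and all were called (highest edgeR FDR = 0.0147, at day 13 in BRD cattle).

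PTGS1 at day 0 ranged from 0.685 to 1.70 CPM in healthy cattle (median 1.09 CPM) and from 0.570 to 1.61 CPM in BRD cattle (median 1.09 CPM). At day 28 it ranged from 1.23 to 2.77 CPM in healthy cattle (median 1.67 CPM), a fold change of 1.62 (log2 0.69 ± 0.17 SE, edgeR FDR = 0.00201). In BRD cattle at day 28 it ranged from 1.03 to 3.81 CPM (median 1.89 CPM), a fold change of 1.75 (log2 0.80 ± 0.16 SE, edgeR FDR = 8.16e-05). The fold changes of BRD cattle at days 13 and 60, 1.63 (edgeR FDR = 0.000872) and 1.55 (edgeR FDR = 0.00229), were called as well. At day 45 the medians were 1.42 CPM in healthy and 1.40 CPM in BRD cattle, and neither change was called.

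Downstream of the cyclooxygenases, HPGD moved with the lipoxygenases and PTGES stayed near the limit of counting. HPGD at day 0 had a median of 7.65 CPM in healthy cattle (range 1.71 to 31.3 CPM) and of 3.38 CPM in BRD cattle (range 0.633 to 13.7 CPM). In healthy cattle it fell to a median of 4.86 CPM at day 28 (range 1.69 to 12.5 CPM, lower in 10 of 12 animals), a log2 change of -0.85 ± 0.31 SE (edgeR FDR = 0.0493). This call was lost without animal 6 (log2 -0.72) or animal 46 (log2 -0.67). In BRD cattle it rose to a median of 7.30 CPM at day 45 and 9.36 CPM at day 60 (range 1.16 to 36.5 CPM), with 12 of 14 animals higher on each day. These were fold changes of 2.27 (log2 1.18 ± 0.29 SE, edgeR FDR = 0.00196) and 2.48 (log2 1.31 ± 0.29 SE, edgeR FDR = 0.000648). PTGES had day medians of 0 to 0.137 CPM, at most 0.856 CPM in any library, and changes with standard errors of 0.60 to 0.70 on the log2 scale, none of which was called.

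**Figure D2:**
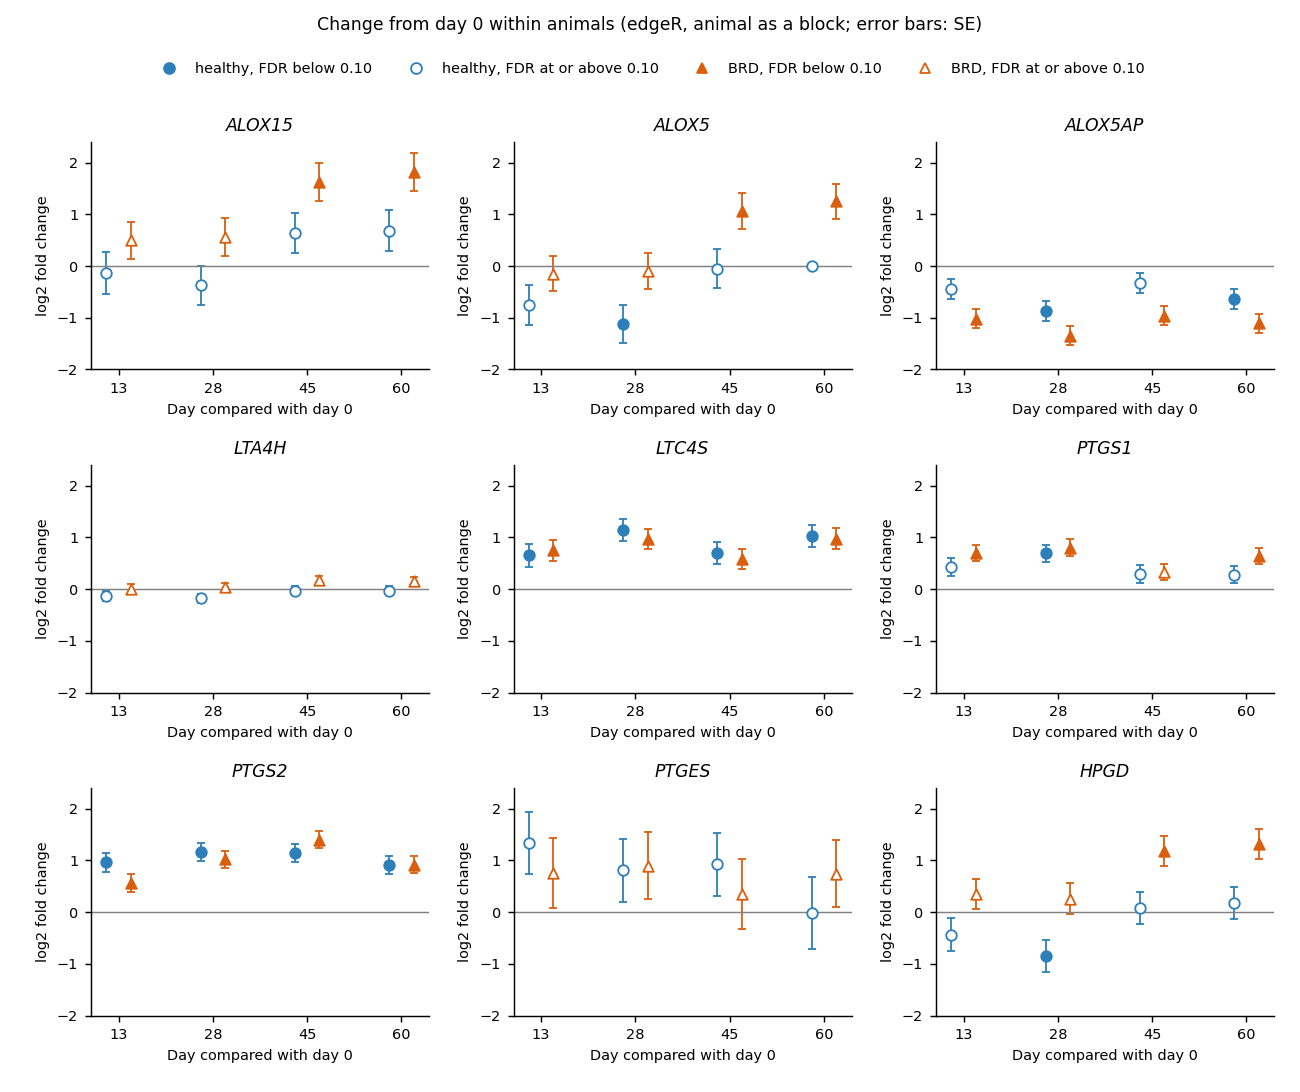
Log2 fold change from day 0 for each gene at days 13, 28, 45 and 60, from the edgeR model with animal as a block, with error bars of 1 SE, circles for healthy and triangles for BRD cattle, and filled symbols for FDR below 0.10 (no error bar is drawn where the change is so close to 0 that no SE could be computed). PTGS2 and LTC4S lie above 0 on all 4 days in both labels, ALOX5AP lies below 0 throughout, and ALOX15, ALOX5 and HPGD are filled above 0 in BRD cattle at days 45 and 60.

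These counts stand against a background in which many genes changed after day 0. In healthy cattle, 2 members were called at day 13, when 10.95% of the 18937 tested genes were called, 6 at day 28 (20.98%), 2 at day 45 (8.55%) and 3 at day 60 (11.64%). In BRD cattle, 4 members were called at day 13 (17.43% of all genes), 4 at day 28 (20.05%), 6 at day 45 (22.51%) and 7 at day 60 (19.62%). The median log2 change of the members was 0.49, 0.56, 0.58 and 0.92 in BRD cattle and -0.14, -0.18, 0.29 and 0.18 in healthy cattle at days 13, 28, 45 and 60, and that of all tested genes lay between -0.01 and 0.01. Only the change from day 0 was tested, and differences between later days were not.

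Differences between BRD and healthy cattle on the same day did not pass the threshold for any member. HPGD was lower in BRD cattle at day 0 by 1.43 on the log2 scale, that is at 0.371 of the healthy level, with an SE of 0.44 (edgeR, unadjusted p = 0.00173, FDR = 0.330). Of the 14 BRD animals, 11 lay below the healthy median. ALOX5AP was 1.43 times higher in BRD cattle (log2 0.52 ± 0.20 SE, unadjusted p = 0.0123, edgeR FDR = 0.521). The log2 differences of ALOX15 and ALOX5 were -0.91 ± 0.54 and -0.995 ± 0.508 (edgeR FDR = 0.794 and 0.711). PTGES differed by -1.52 ± 1.07, at medians of 0.0524 CPM in healthy and 0 CPM in BRD cattle. LTA4H differed by -0.14 ± 0.12, LTC4S by 0.12 ± 0.38, PTGS1 by -0.06 ± 0.23 and PTGS2 by 0.12 ± 0.25 on the log2 scale.

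The day 0 differences depended on which animals were compared. Without BRD animal 40 the log2 difference of HPGD was -1.61 and passed the threshold (edgeR FDR = 0.0848), and without the other animals in turn it lay between -1.55 and -1.05 and did not pass. The share of all genes called without animal 40 is not given here, so this call is not read as a result about HPGD. Among the 15 animals of the 4 pens that held both labels, with pen as a covariate, the log2 differences at day 0 were -0.48 for HPGD, -0.10 for ALOX15 and -0.20 for ALOX5. In the same comparison ALOX5AP was higher in BRD cattle by 1.26 on the log2 scale (edgeR FDR = 0.0137), the only member called, when 9.12% of the 17788 genes tested there were called. Without BRD animal 43, which held the highest ALOX5AP value, the log2 difference over all pens was 0.36 (edgeR FDR = 0.747). Animal 43 was also among the BRD animals of the 4 pens that held both labels. The comparison within those pens was not run without it.

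From day 13 onwards the log2 differences of ALOX15 between labels were -0.18, -0.35, -0.05 and 0.25, those of ALOX5 were -0.22, -0.12, 0.26 and 0.48, and those of HPGD were -0.24, -0.44, -0.01 and -0.01, at days 13, 28, 45 and 60. The difference of ALOX5AP was at most 0.16 in size on these days, and that of PTGS2 at most 0.30. The ranges of healthy and BRD libraries overlapped for all 9 members on all 5 days. Among all 18937 genes, 0.0158% were called at day 0, 0% at days 13 and 45, and 0.00528% at days 28 and 60, so that calls between labels were rare for any gene, and 1347 genes had an unadjusted p below 0.05 at day 0, 2 of them members. When the counts of each animal were summed over its libraries and compared with supplement as a covariate, 0% of 20640 genes were called, 1123 had an unadjusted p below 0.05 and none of these was a member. These log2 differences ranged from -0.67 ± 0.46 for PTGES to 0.20 ± 0.14 for ALOX5AP.

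**Figure D3:**
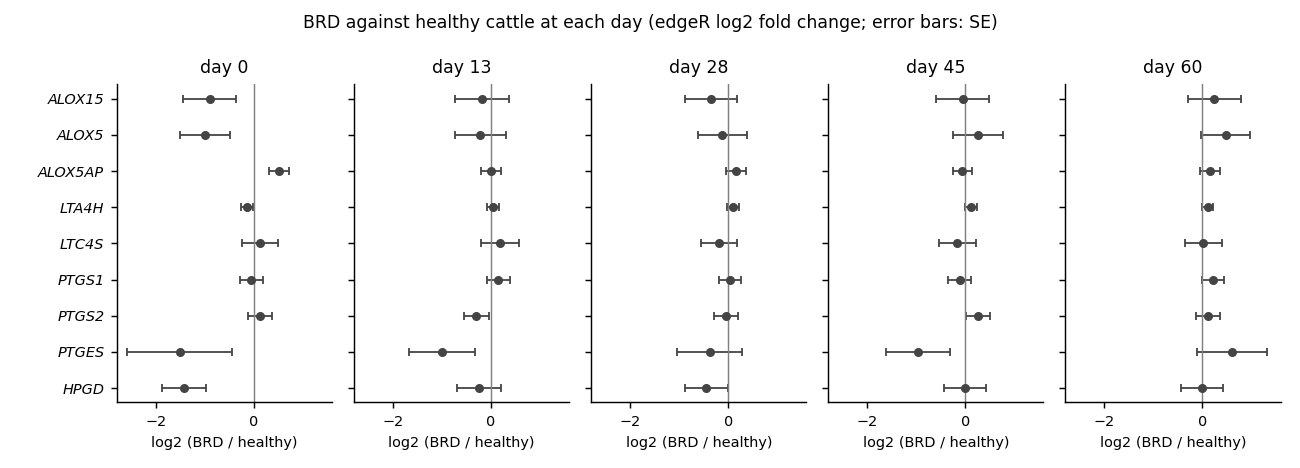
Log2 ratio of BRD to healthy cattle for each of the 9 genes at each day, from the edgeR model with a mean per supplement, label and day, with error bars of 1 SE. HPGD at day 0 lies at -1.43 and is the point farthest from 0 relative to its error, and the HPGD points of days 13 to 60 lie nearer to 0.

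The change from day 0 was also compared directly between the labels, which tests whether BRD cattle moved more than healthy cattle. No member and 0% of all genes were called on any later day. An unadjusted p below 0.05 was seen for 619 genes at day 13, 863 at day 28, 801 at day 45 and 596 at day 60. Of the members, 1, 2, 3 and 3 had such a p. At day 60 the change of BRD cattle exceeded that of healthy cattle by 1.13 ± 0.43 for HPGD (edgeR, unadjusted p = 0.00941), 1.25 ± 0.51 for ALOX5 (unadjusted p = 0.0149) and 1.13 ± 0.53 for ALOX15 (unadjusted p = 0.0371) on the log2 scale, all with FDR = 1. For PTGS2, LTC4S and PTGS1 at day 60 the differences were 0.01 ± 0.24, -0.05 ± 0.29 and 0.35 ± 0.23. The calls of ALOX15, ALOX5 and HPGD in BRD cattle alone are therefore not shown to differ from the changes in healthy cattle.

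Supplements were compared in 3 pairs at 5 days. Day 0 was the day of enrollment in the pens, and the study does not take differences on that day as effects of the supplements. Only the COMBO drench had been given earlier, before shipment. No member was called in any of the 15 comparisons. The share of all genes called was 0.565% at day 0, 0.929% at day 13 and 0.0317% at day 28 between AAC and COMBO, and 0% at days 45 and 60. It was 0% between COMBO and INR except at day 60 (0.00528%), and between AAC and INR it was 0.0422% at day 13, 0.0106% at day 28 and 0% on the other days. Over the 15 comparisons 4 member values had an unadjusted p below 0.05 in edgeR, without passing the correction. These were 2 between AAC and COMBO at day 0, where 2010 of all genes had such a p, 1 between them at day 28 (1163 genes) and 1 between AAC and INR at day 28 (1241 genes). At day 0, LTC4S in AAC was 0.490 of its level in COMBO (log2 -1.03 ± 0.49 SE, edgeR FDR = 0.418), and PTGES differed at counts of 0 to 9 per library. At day 28, ALOX5AP in AAC was 0.691 of its level in COMBO (edgeR FDR = 0.802) and 0.714 of its level in INR (edgeR FDR = 0.743). The order of the supplement medians differed between the labels in the examples below, in groups of 3 to 7 animals. Whether the supplement differences depend on the label was not tested. ALOX15 medians of healthy cattle at day 0 were 32.6 CPM in AAC, 81.8 CPM in COMBO and 78.99 CPM in INR, and those of BRD cattle were 65.6, 15.337 and 15.397 CPM. HPGD medians at day 60 were 10.8, 13.2 and 10.5 CPM in healthy cattle and 19.01, 7.20 and 4.44 CPM in BRD cattle, in the same order of supplements. The supplement differences at those days, fitted over both labels, were not called. Their SE was 0.62 to 0.69 for ALOX15 and 0.50 to 0.57 for HPGD on the log2 scale. The ALOX15 differences at day 0 were 0.34 to 0.89.

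**Figure D4:**
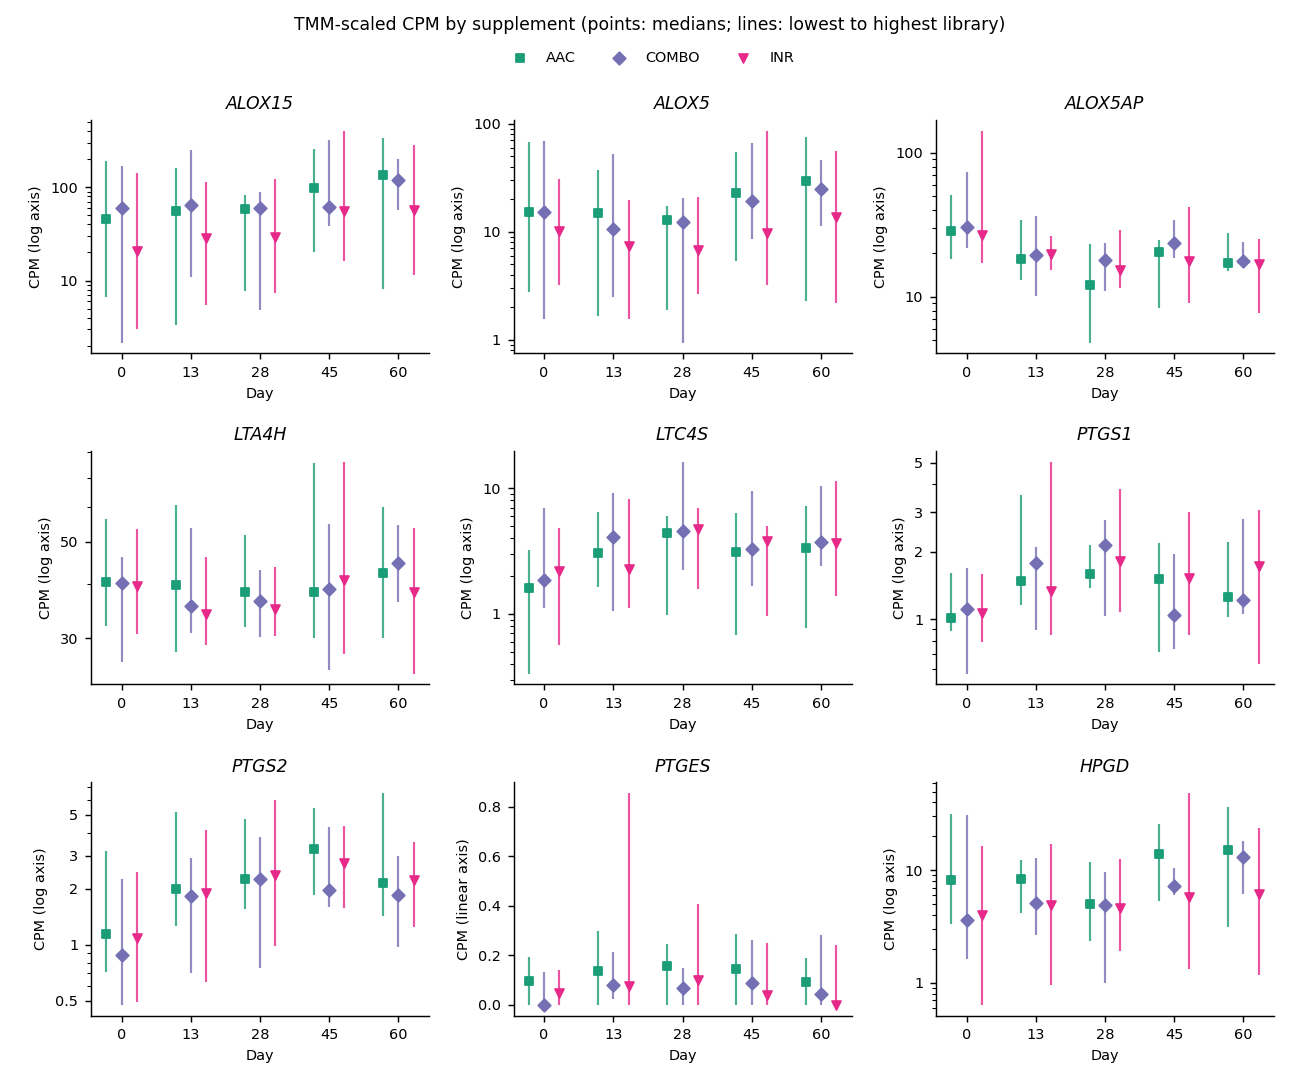
TMM-scaled CPM of each gene by day (log axis, linear for PTGES) in AAC, COMBO and INR cattle, healthy and BRD together, with points for medians and lines from the lowest to the highest library. The ranges of the 3 supplements overlap for every gene and day, and the groups hold different shares of BRD cattle (4 of 8 in AAC, 3 of 7 in COMBO and 7 of 11 in INR, with 1 AAC library fewer at day 13).

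Much of the spread of most members lay between animals. A mean per animal takes up part of the variance even where animals do not differ, and differences between supplements and pens are included in it. After the means of label and day had been removed, differences between animals held 75.4% of the variance of log2 CPM for LTC4S, 66.5% for ALOX15, 65.6% for PTGS2, 64.34% for HPGD, 63.4% for ALOX5, 62.03% for LTA4H, 51.9% for PTGS1, 40.2% for PTGES and 35.3% for ALOX5AP. The share of the day was taken over a different total, the variance of log2 CPM before these means were removed. It was 34.182% for ALOX5AP, 32.8% for PTGS2 and 3.20% to 20.3% in the other members. Animals are ranked here by their mean deviation from the means of label and day. By this measure healthy AAC animal 49 was lowest in ALOX15 and ALOX5, with ALOX15 between 3.34 and 23.7 CPM over its 5 libraries. BRD AAC animal 41 was highest in both, with ALOX15 between 81.8 and 192.1 CPM. In CPM, healthy INR animal 30 spanned a higher range of ALOX15, from 113.3 to 403.0 CPM. Other animals ranged widely, with ALOX15 between 2.16 and 118.2 CPM in healthy COMBO animal 42 and between 7.35 and 234.8 CPM in BRD INR animal 40. LTC4S was highest in healthy COMBO animal 57 (6.85 to 16.2 CPM) and lowest in BRD AAC animal 9 (0.334 to 1.64 CPM). PTGS2 was highest in BRD AAC animal 21 (3.20 to 6.53 CPM) and lowest in BRD COMBO animal 54 (0.619 to 1.96 CPM). HPGD was highest in BRD INR animal 40 (7.33 to 48.5 CPM) and lowest in BRD INR animal 43 (0.633 to 4.61 CPM), and the same animal 43 had the highest ALOX5AP of the series at day 0, 141.8 CPM.

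Over all libraries, which share 26 animals, ALOX15, ALOX5 and HPGD moved together. Pearson's r of log2 CPM was 0.93 between ALOX15 and ALOX5, 0.86 between ALOX5 and HPGD, 0.79 between ALOX15 and HPGD, and 0.65 to 0.74 between LTA4H and each of these. The values within label and day were 0.94, 0.85, 0.77 and 0.66 to 0.74. ALOX5AP had an r of 0.26 with ALOX5, the enzyme it assists, and of 0.09 with ALOX15. LTC4S had an r of -0.02 with LTA4H, and PTGS1 and PTGS2 had an r of 0.25 with each other. These correlations are descriptions, since libraries of an animal are not independent.

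The 3 genes closest in pattern to each member, by Pearson's r of log2 CPM over all libraries, included several markers of blood cells. SMPD3, a gene of the eosinophil list, was closest to ALOX15 (r = 0.95), followed by ALOX5 and LOC100297044. ALOX15 and LOC100297044 were among the genes closest to ALOX5 (r = 0.93 each). LOC100297044, KCTD15 and ALOX5 were closest to HPGD (r = 0.90, 0.87 and 0.86). PLD3, the granulocyte transcription factor CEBPE, also on the eosinophil list, and KCTD15 were closest to LTA4H (r = 0.79, 0.77 and 0.77). ANXA1, an inhibitor of arachidonic acid release, and the neutrophil genes S100A9 and S100A12 were closest to ALOX5AP (r = 0.84, 0.83 and 0.83). ITGB3, a platelet integrin, MYL9 and SEC14L5 were closest to LTC4S (r = 0.73, 0.71 and 0.70). The complement genes C1QC, C1QA and C1QB, made by macrophages and monocytes, were closest to PTGS1 (r = 0.55, 0.55 and 0.54). PLAGL2, LDLRAD3 and the sterol regulator INSIG1 were closest to PTGS2 (r = 0.64, 0.62 and 0.62), and COL6A1, MRC2 and ADAM33 to PTGES (r = 0.48, 0.45 and 0.45).

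Summed levels of cell type markers moved with several members. The 10 eosinophil and basophil markers tested, led by CCR3, summed to medians of 78.7 CPM in healthy and 57.9 CPM in BRD cattle at day 0, and of 110.3 and 114.6 CPM at day 60. In BRD cattle 7 of the 10 were called higher at day 60, when 19.62% of all tested genes were called in either direction. At day 45, 6 were called higher (22.51% of all genes), and none was called lower on either day. The sum was higher than at day 0 in 12 of 14 BRD animals on both days (median log2 change 0.63 at day 45 and 0.77 at day 60). In healthy cattle the sum was higher than at day 0 in 4 of 12 animals at day 45 (median log2 change -0.08) and in 7 of 12 at day 60 (0.05). Over all libraries this sum had an r of 0.87 with ALOX5, 0.86 with HPGD, 0.85 with ALOX15 and 0.66 with LTA4H, the list including SMPD3. EPX and PRG2, the granule proteins that define eosinophils best, are not among the symbols of the table, and the related PRG3 was at 0 in 5 libraries. Relative to the marker sum, ALOX15 was still higher at day 60 than at day 0 in 13 of 14 BRD animals (median log2 change of the ratio 0.88) and in 10 of 12 healthy animals (0.24). The same ratio rose in 9 of 14 BRD animals for ALOX5 (median 0.24) and in 10 of 14 for HPGD (median 0.29). The part of eosinophil numbers in these changes was not tested.

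The 8 neutrophil markers tested summed to medians of 2482 CPM in healthy and 2902 CPM in BRD cattle at day 0, and of 1785 and 1889 CPM at day 60. In BRD cattle 6 of 8 were called lower at days 28 and 60, 5 at day 13 and 4 at day 45, and none was called higher. Of all tested genes, 17.43%, 20.05%, 22.51% and 19.62% were called in either direction at days 13, 28, 45 and 60. The neutrophil sum had an r of 0.87 with ALOX5AP over all libraries. ALOX5AP had an r of 0.66 with the sum of 8 monocyte markers, led by FCN1. The monocyte sum was lower at day 28 than at day 0 in all 12 healthy and all 14 BRD animals. Relative to the neutrophil sum, ALOX5AP was lower at day 28 than at day 0 in 13 of 14 BRD animals (median log2 change of the ratio -0.43) and in 11 of 12 healthy animals (-0.23). PTGS2 had an r of -0.06 with the monocyte sum over all libraries and of 0.34 within label and day.

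The 8 platelet markers tested, led by TUBB1, summed to medians of 767.5 CPM in healthy and 762.1 CPM in BRD cattle at day 0, and of 1527 and 1391 CPM at day 28. The sum had an r of 0.64 with LTC4S, 0.35 with PTGS1 and 0.30 with PTGS2. Relative to it, LTC4S was higher at day 60 than at day 0 in all 14 BRD animals (median log2 change of the ratio 0.45) and in 11 of 12 healthy animals (0.42). Red cell transcripts, led by HBB, rose far more than any of these, from a median of 118.6 CPM at day 0 to 1341 CPM at day 13 in healthy cattle and from 144.5 to 2918 CPM in BRD cattle, and their r with the members was at most 0.36 over all libraries and at most 0.48 (HPGD) within label and day. The sums of 8 B cell markers (led by MS4A1), 8 T cell markers (led by CD3E) and 7 NK cell markers (led by PRF1) changed by a median of at most 0.34 on the log2 scale on any day. The T cell sum had an r of 0.67 with LTA4H. The part of neutrophils, monocytes and platelets in the changes of ALOX5AP, PTGS2 and LTC4S was not tested.

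**Figure D5:**
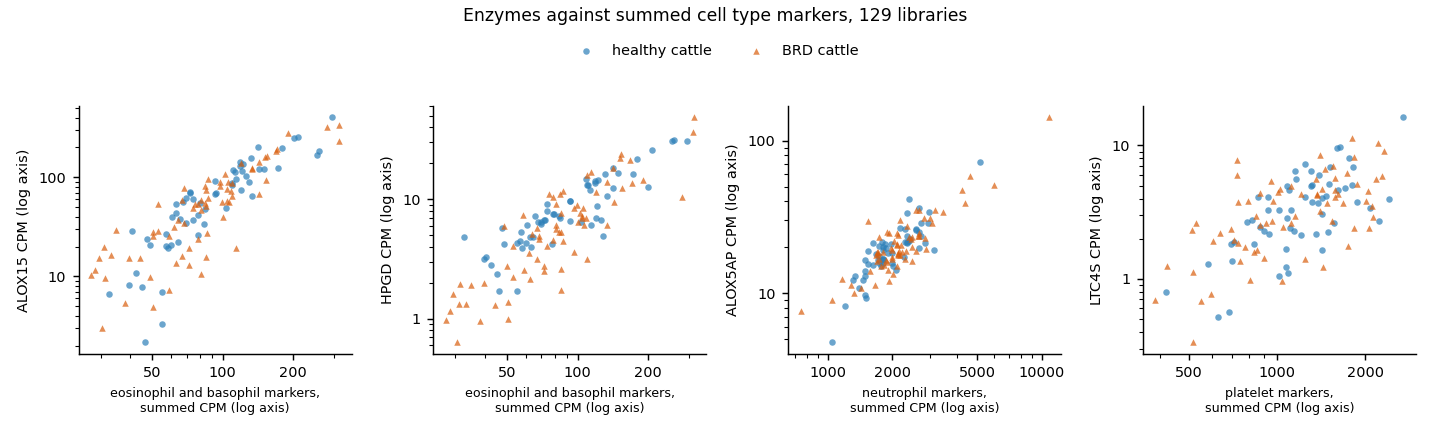
CPM of ALOX15 and HPGD against the summed CPM of eosinophil and basophil markers, of ALOX5AP against that of neutrophil markers and of LTC4S against that of platelet markers (both axes log), with 1 point for each library, circles for healthy and triangles for BRD cattle. The points rise along each panel, with r of 0.85, 0.86, 0.87 and 0.64 from left to right, and the labels overlap.

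Other genes of the pathway were followed through 4 lists. Since 8.55% to 22.51% of all tested genes were called in either direction on these days, a few calls in a list of 7 to 15 genes are no result about the list, and the counts are given as a description. Of 8 tested genes of substrate supply, 2 fell in healthy cattle at day 13, 3 at day 28, none at day 45 and 1 at day 60, and none rose. In BRD cattle 3 fell at each of days 13, 28 and 45 and 2 at day 60, and 1 rose at days 45 and 60. ANXA1 fell in BRD cattle by 0.87, 1.21, 0.75 and 0.95 on the log2 scale at days 13, 28, 45 and 60 (highest edgeR FDR = 8.54e-05), and in healthy cattle by 0.53, 0.90 and 0.62 at days 13, 28 and 60. PLA2G4A, the cytosolic phospholipase that frees arachidonic acid, fell in BRD cattle by 0.43, 0.59, 0.34 and 0.50 on the 4 days, and in healthy cattle by 0.28 at day 28. PLA2G7, which inactivates platelet-activating factor, fell at days 13 and 28 in both labels, and PLA2G12A rose in BRD cattle by a log2 change of 0.21 at day 45 and 0.25 at day 60.

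Of 15 other synthases tested, 2 or 3 fell on each day in either label. MGST1 and MGST2, microsomal glutathione transferases, fell on all 4 days in both labels, MGST1 by 0.54 to 0.78 and MGST2 by 0.11 to 0.21 on the log2 scale. EPHX2, an epoxide hydrolase, fell in BRD cattle by 0.83 at day 28 and 0.79 at day 60. Rises were called for PTGIS in healthy cattle at day 13, where it was at 0 in most libraries and no fold is given, for ALOX12E in BRD cattle at day 28 (log2 0.71) and for COTL1, which binds ALOX5, and AKR1B1 in BRD cattle at day 60 (log2 0.25 each).

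Of 13 receptors tested, 4 fell and 1 rose in healthy cattle at day 28, 1 fell at day 13, and none was called at days 45 and 60. In BRD cattle 2, 1, 4 and 2 rose and 1, 1, 0 and 1 fell at days 13, 28, 45 and 60. PTGIR, the prostacyclin receptor, rose in BRD cattle on all 4 days, by log2 changes of 0.60, 0.76, 0.58 and 0.56. PTGDR2, a prostaglandin D2 receptor of eosinophils, basophils and some T cells, fell by 0.59 in healthy cattle at day 28 and rose by 0.54 and 0.47 in BRD cattle at days 45 and 60. PTGER4, a prostaglandin E2 receptor, fell at days 13 and 28 in both labels, by 0.25 to 0.52. LTB4R, the leukotriene B4 receptor, fell by 0.53 in healthy cattle at day 28 and by 0.38 in BRD cattle at day 60. Of 7 genes of transport and breakdown, GGT5, which cleaves leukotriene C4, fell in BRD cattle on all 4 days (log2 -0.33 to -0.49), DPEP3 rose at day 28 in both labels (log2 0.54 and 0.44), and ABCC1, an exporter of leukotriene C4, rose in BRD cattle by 0.10 at days 45 and 60. No gene of the 4 lists was called between BRD and healthy cattle or for a change that differed between them.

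A list of 7 genes that glucocorticoids induce was compared with day 0 at days 13, 28, 45 and 60. In healthy cattle 6, 7, 7 and 7 of them were called lower, and in BRD cattle 4, 7, 6 and 6, with none higher. The share of all tested genes called in either direction was 8.55% to 20.98% in healthy and 17.43% to 22.51% in BRD cattle. The part of the 7 genes in the changes of the members was not tested.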

How the data were processed

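Whole blood was collected into RNA-stabilising tubes from 26 steers on 5 days, and poly(A)-selected, strand-specific libraries were read in pairs on an Illumina instrument. Per the labels, reads were checked with FastQC 0.11.9, trimmed with Trimmomatic 0.39, aligned with HISAT2 (the labels and the study's methods give different versions) to the bovine assembly ARS-UCD1.3 and assembled with StringTie 2.2.0. The authors deposited whole-number counts per gene for 32395 genes, which a script of StringTie derives from coverage, so that a count is an estimate of reads. No column of another series was present (0 left out). Reads shared with overlapping genes cannot be separated here, and in the RefSeq table of a later assembly ALOX15 overlaps LOC112442630, a noncoding gene, and PTGS1 overlaps MIR10175.

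Groups were taken from the labels. Counts were tested in edgeR 4.0.16 (R 4.3.3) with TMM scaling, its default filter on low counts, a common dispersion, the quasi-likelihood F-test and Benjamini-Hochberg adjustment over all tested genes within each comparison, with a threshold of FDR below 0.10. Disease and supplement were tested with a mean for each of 30 groups (dispersion 0.152), changes from day 0 with animal as a block (dispersion 0.0805), and all days on counts summed per animal (dispersion 0.129). Standard errors were derived from the F statistic. Libraries of the same animal come from the same individual and pair the samples: over 256 pairs of such libraries the median correlation of deviations from group means was 0.371, against -0.0101 for libraries of different animals. Log2 CPM used a prior count of 2.

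The members, the gene lists and the tests were chosen with earlier results of these data known. All 9 members are described. Pathway genes are named where called in at least 1 disease comparison or change from day 0, at most 4 per list and comparison by p, marker lists by the gene of highest mean CPM, and similar genes as the 3 of highest Pearson's r. Of 132 genes in the lists, 122 were in the table and 113 were tested. Alternatives were DESeq2 1.42.0, RLE size factors, no filter, a stricter filter (1 CPM in 65 libraries or 13 animals), a trended dispersion, a threshold of 0.05, leaving out each animal with the dispersion held, leaving out the day 60 library of animal 40, ignoring supplement, the shared pens with pen as a covariate, limma 3.58.1 with animal as a random block, no block, labels fitted separately, and CPM without TMM. The scripts were tested on simulated data. Some genes that these rules would name are not reported here.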

Additional observations from a re-analysis of the deposited data

Results flagged for a closer look

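In groups of 4 to 7 animals of the same supplement, label and day, 24 of 216 gene and group combinations held an outlying library. Its gap to its nearest neighbour exceeded Dixon's 95% critical value. Chance gives about 5% only for normally distributed values, and CPM were used here without a log scale. The count is therefore not read as an excess of unusual libraries. Most of the flagged values were high. ALOX15 reached 184.0 CPM in healthy AAC animal 46 at day 0 (next 36.7 CPM), and in BRD INR cattle 89.4 CPM in animal 23 at day 28 (next 34.7), 234.8 CPM in animal 40 at day 45 (next 109.2) and 281.2 CPM in animal 29 at day 60 (next 96.03). ALOX5 reached 37.4 CPM in BRD AAC animal 41 at day 13 (next 17.8), and in BRD INR cattle 18.5 CPM in animal 23 at day 28 (next 6.88) and 86.1 CPM in animal 40 at day 45 (next 18.04), and it was low, at 3.01 CPM, in BRD AAC animal 31 at day 28 (next 15.6).

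ALOX5AP reached 72.8 CPM in healthy COMBO animal 6 (next 28.8) and 141.8 CPM in BRD INR animal 43 (next 58.3), both at day 0, and was low, at 8.32 CPM, in healthy AAC animal 49 at day 45 (next 19.36). LTC4S reached 16.2 CPM in healthy COMBO animal 57 at day 28 (next 3.29). HPGD was highest in BRD INR animal 40 on 3 days, at 9.17 CPM on day 0 (next 4.02), 16.9 CPM on day 13 (next 6.43) and 48.5 CPM on day 45 (next 7.62).

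PTGS1 held 7 of these values. They were 3.58 CPM in BRD AAC animal 21 at day 13 (next 1.503), 1.22 and 2.22 CPM in healthy AAC animal 49 at days 0 and 60 (next 0.932 and 1.23), 2.26 CPM in healthy COMBO animal 42 at day 60 (next 1.21), 5.04 CPM in BRD INR animal 43 at day 13 (next 2.56), and 3.91 and 3.00 CPM in healthy INR animal 50 at days 13 and 45 (next 1.03 and 1.53). PTGES reached 0.106 CPM in healthy AAC animal 48 at day 60, where the others were at 0, and 0.142 CPM in BRD INR animal 39 at day 0 (next 0.0502). No cause of these values was tested.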

How the results depend on the processing

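Members were called 13 times against day 0 in healthy cattle and 21 times in BRD cattle over the 4 days. Without the animal as a replicate block these counts were 8 and 12, and with 1 animal left out in turn they ranged from 10 to 14 and from 21 to 22. Without the block LTC4S lost 7 of its 8 calls, ALOX5 lost 3, and ALOX15, HPGD, PTGS1 and PTGS2 lost 1 each. None of the calls against day 0 changed direction under the alternatives run. Between BRD and healthy cattle the count was 0, and it was 1 in the shared pens with pen as a covariate (ALOX5AP at day 0) and 0 to 1 with 1 animal left out (HPGD at day 0 without animal 40); with the animal as a random replicate block in limma it was 0. Leave-one-out counts were 0 to 0 between supplements, for the difference of changes and over all days. In the shared pens 1622 genes were called at day 0 against 3 with all animals, for which DESeq2 called 98; the cause was not tested. Counts of all genes against day 0 were 458 to 1791 without the block and 1620 to 4262 with it.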
